A study of Mus musculus with 4 samples.

Results

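The Fc gamma receptors and the proteins they signal through were followed in RNA-seq of the injured mouse spinal cord. The 6 genes were taken by symbol from the deposited table: the activating receptors FCGR1, FCGR3 and FCGR4, the inhibitory receptor FCGR2B, the shared signalling chain FCER1G and the kinase SYK, with symbols written as in that table. All 6 were listed at 7 dpi, among 14123 features, and 5 at 21 dpi, among 11470 features. FCGR3 was listed at 7 dpi only.

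Lesion segments of about 4 mm came from male mice of 3 to 5 months that carried the coding region of human ApoE3 or human ApoE4 in place of the mouse gene, so each isoform is made under mouse control elements. All received a 50 kdyne contusion at T9, and the 4 groups were ApoE3 at 7 dpi, ApoE4 at 7 dpi, ApoE3 at 21 dpi and ApoE4 at 21 dpi. All were operated under isoflurane anaesthesia and given Ringer's solution, the anti-inflammatory drug carprofen and the antibiotic Baytril after surgery; uninjured cord was not analysed here. The methods give 3 mice per group, and the table holds 1 combined FPKM per gene and group (fragments per kilobase of transcript and per sequenced fragments), with no values of single mice and no read numbers. The authors' own tests in the table were not used here, so each difference below is given without a replicate check. By the methods 1 replicate aligned at a lower rate than the others, and their text does not name its group. The rows name the comparison as ApoE3 versus ApoE4 but number the samples the other way round. The first value was read as ApoE3, as the name of the comparison has it and as the deposited fold change, the first value over the second, is read in the study; read by sample number every genotype direction given here would be the opposite. APOE itself was listed at 21 dpi only, at 843 FPKM in ApoE3 and 1311 FPKM in ApoE4, a level that does not tell the isoforms apart. The methods name the mouse reference genome for alignment, and how far this level counts reads of the human coding region is not known.

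Fc gamma receptors bind the constant part of IgG and so tie antibody-coated myelin, debris or cells to phagocytes; in the cord they are carried mainly by microglia and by macrophages that enter after injury. Activating receptors pair with the chain encoded by FCER1G, whose ITAM is phosphorylated by SRC family kinases and then recruits SYK, which drives phagocytosis, the oxidative burst and cytokine release. FCGR2B carries an ITIM instead and recruits the phosphatase INPP5D, so the activating and inhibitory arms set the threshold of the same cell.

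The promoters of the activating receptors are shown because these receptors are known to be induced in myeloid cells and by interferon, and because the listed ones, FCGR1 and FCGR4, had the lowest ratios of ApoE3 to ApoE4 among the members at 21 dpi. All 6 genes were found in the RefSeq promoter table of GRCm38.p6, FCGR3 and SYK with 2 starts each. Given here are the 120 bases before the start on the strand of the gene, for FCGR1 at chr3:96293970-96294089 on the minus strand, for FCGR3 at chr1:171059404-171059523 on the minus strand (the first of its starts) and for FCGR4 at chr1:171018806-171018925 on the plus strand. Capitals mark every match, on either strand, to GAGGAA (the core bound by PU.1-type factors) or GAAA followed after any 2 bases by GAAA (the IRF-type element); no matches overlapped in these sequences.
FCGR1: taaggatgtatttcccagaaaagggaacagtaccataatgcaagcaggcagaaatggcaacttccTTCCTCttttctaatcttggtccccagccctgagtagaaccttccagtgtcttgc
FCGR3: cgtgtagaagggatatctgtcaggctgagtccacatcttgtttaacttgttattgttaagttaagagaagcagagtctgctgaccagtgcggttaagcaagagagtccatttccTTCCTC
FCGR4: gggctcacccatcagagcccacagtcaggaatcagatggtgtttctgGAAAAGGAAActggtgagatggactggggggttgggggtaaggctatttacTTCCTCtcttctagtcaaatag

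GAGGAA, written as TTCCTC on the strand shown, lay 55 bases before the start in FCGR1, 6 in FCGR3 and 22 in FCGR4. From the other annotated start of FCGR3 the match lay 15 bases away, and SYK had a match 9 bases before the second of its starts. The IRF-type element was found in FCGR4, 73 bases before the start. In the 250 bases searched, these were the only matches to the 2 motifs in the 6 genes, so the letters were not present in that window of FCGR2B, FCER1G or the first start of SYK. Over 32851 promoters, 23.3% held GAGGAA and 2.98% the IRF-type element in the same 250 bases. GAGGAA together with the IRF-type element was held by 0.892%. The motifs were chosen with these sequences in view, and a match describes letters, not binding.

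**Figure D1:**
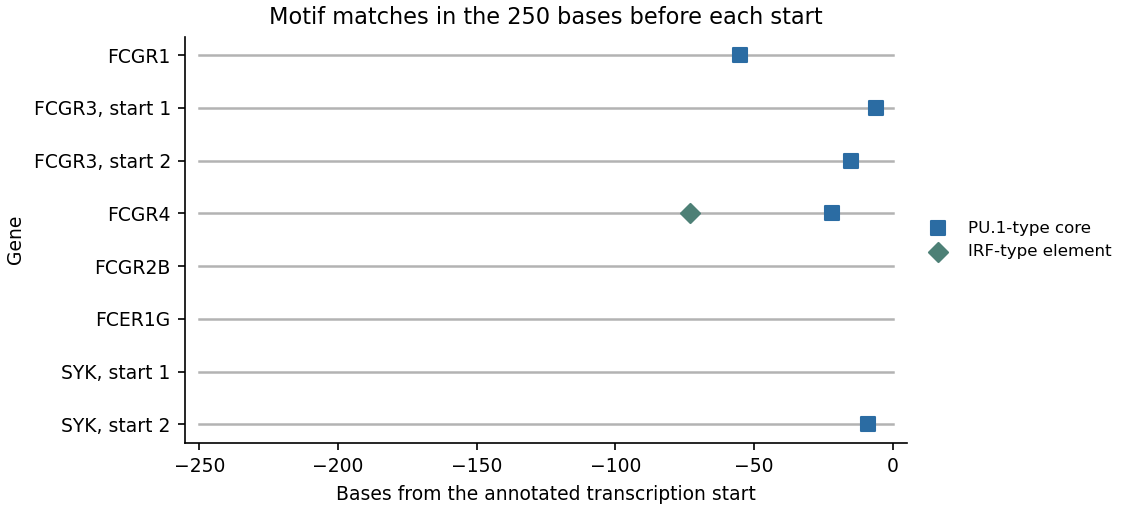
Positions of motif matches (symbols) along the 250 bases before each annotated start (horizontal axis, bases) for the 6 genes. The 3 activating receptors each have the PU.1-type core within 55 bases of the start, and FCGR4 also has the IRF-type element at 73 bases.

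Among protein-coding genes of chromosome 1, FCGR2B, FCGR4 and FCGR3 are direct neighbours in that order, and FCER1G lies 10 genes from FCGR2B. FCGR1 is on chromosome 3 and SYK on chromosome 13. Because the receptors are related, shared sequence was counted in the GENCODE vM21 transcripts. Of all stretches of 100 bases, the read length, 2.70% of those of FCGR3 were shared with FCGR2B and 6.49% of those of FCGR2B were shared with any other gene. FCGR1, FCGR4, FCER1G and SYK shared 0 stretches with other genes. How reads from shared stretches were assigned is not given in the sources used here.

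The tissue carried the marker genes of the cord. Of 17 spinal cord genes, 14 were listed at 7 dpi and 12 at 21 dpi, with MBP the most abundant. At 7 dpi 12 of the 14 were higher in ApoE3, 2 of them past 1.3-fold, with a median log2 ratio of ApoE3 to ApoE4 of 0.22. At 21 dpi all 12 were higher in ApoE4, 11 of them past 1.3-fold, with a median of -0.64. Relative to the median of all features that median was -0.22, with 2 genes past 1.3-fold. At 21 dpi the groups also differed in the levels of genes that mark other tissues. All 9 listed Schwann cell and sensory ganglion genes (of 11) were higher in ApoE3 past 1.3-fold, with a median log2 ratio of ApoE3 to ApoE4 of 2.32; AVIL was 39.1 FPKM in ApoE3 and 1.195 FPKM in ApoE4, and TRPV1 and MRGPRD were listed at 0 in ApoE4. All 7 listed skeletal muscle genes (of 10) were higher in ApoE4, with sums of 33.6 FPKM in ApoE3 and 713 FPKM in ApoE4, TNNT3 the most abundant at 22.5 and 515 FPKM, and MYH4 listed at 0 in ApoE3. The 7 listed liver genes (of 9) summed to 10.7 and 129 FPKM, with APOA2 the most abundant at 5.38 and 59.2 FPKM. At 7 dpi 3 Schwann cell and ganglion genes, 7 muscle genes and 0 liver genes were listed, with median log2 ratios of -0.04 and 0.28 for the first and second of these. The part of these tissues in the values at 21 dpi was not tested.

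The levels of the 6 genes spanned a wide range, and all listed members were lower at 21 dpi than at 7 dpi. The values at 7 and 21 dpi come from separate comparisons in the table, so levels set across time carry that limit. FPKM is scaled to length, which allows genes to be set beside each other within a group. At 21 dpi 93.8% of all listed features were higher in ApoE4, so a member higher there is read against that share.

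FCGR3, the low-affinity activating receptor, was the most abundant member at 7 dpi, with 808 FPKM in ApoE3 and 935 FPKM in ApoE4. It lay above 98.1% of listed features in ApoE3 and above 98.5% in ApoE4. Its level was 23.8 times that of FCGR1 in ApoE3 and 29.1 times in ApoE4. It was therefore the receptor that made up most of the Fc gamma receptor RNA at 7 dpi, and it is the one with no value at 21 dpi. A high level at 7 dpi did not secure a row at 21 dpi for other features either: of 3286 features with a mean of at least 100 FPKM at 7 dpi, 68.6% were listed at 21 dpi.

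FCGR1, the high-affinity receptor that can bind monomeric IgG, stood at 34.0 FPKM in ApoE3 and 32.1 FPKM in ApoE4 at 7 dpi. At 21 dpi it was 9.62 FPKM in ApoE3 and 20.1 FPKM in ApoE4. The genotypes lay close together at 7 dpi, and at 21 dpi ApoE4 was 2.09 times ApoE3. FCGR4, which binds IgG2 subclasses, was 26.1 FPKM in ApoE3 and 34.9 FPKM in ApoE4 at 7 dpi. At 21 dpi it was 4.99 FPKM in ApoE3, the lowest value of any member, and 12.6 FPKM in ApoE4. ApoE4 was the higher group for FCGR4 at both times, by 2.53 times at 21 dpi.

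FCGR2B, the inhibitory receptor, was 117 FPKM in ApoE3 and 141 FPKM in ApoE4 at 7 dpi, and 30.6 FPKM in ApoE3 and 45.7 FPKM in ApoE4 at 21 dpi. Its ratio of ApoE4 to ApoE3 at 21 dpi, 1.49, was the smallest of the 5 listed members.

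FCER1G, the chain that activating receptors need for surface expression and signalling, was 289.8 FPKM in ApoE3 and 352 FPKM in ApoE4 at 7 dpi. At 21 dpi it was the most abundant listed member, with 91.1 FPKM in ApoE3 and 152 FPKM in ApoE4. SYK, the kinase recruited to the phosphorylated chain, was 66.2 FPKM in ApoE3 and 83.9 FPKM in ApoE4 at 7 dpi. At 21 dpi SYK was 10.4 FPKM in ApoE3 and 19.7 FPKM in ApoE4. SYK thus moved from a level above FCGR1 and FCGR4 at 7 dpi to one beside FCGR1 at 21 dpi.

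**Figure D2:**
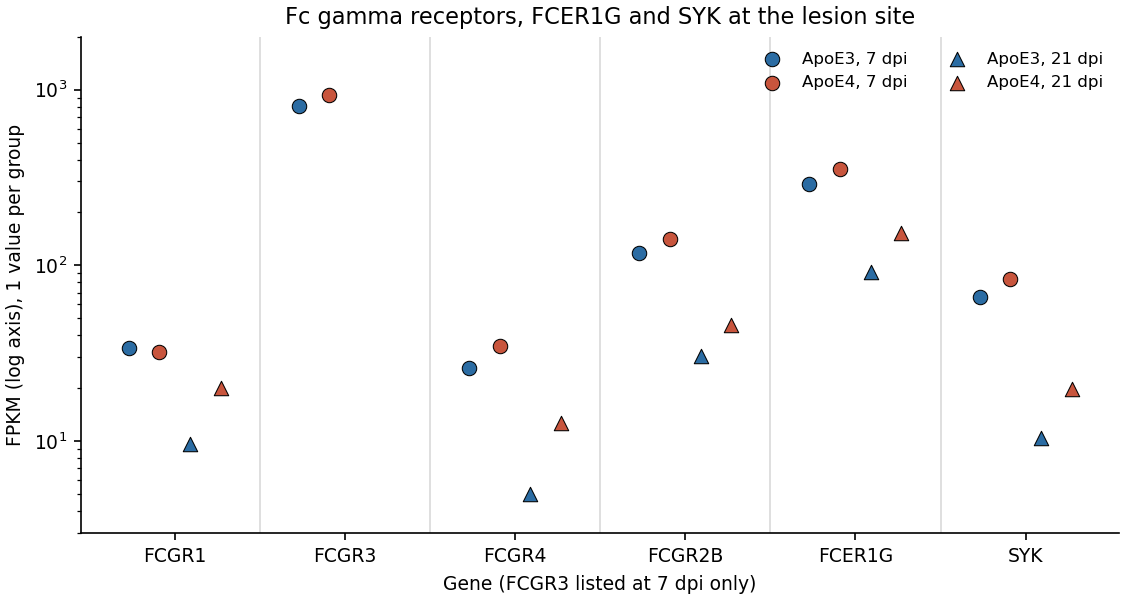
FPKM of the 6 genes (log axis) in ApoE3 (blue) and ApoE4 (red) at 7 dpi (circles) and 21 dpi (triangles), 1 combined value per group. FCGR3 leads at 7 dpi with 808 and 935 FPKM. At 21 dpi each of the 5 listed genes is higher in ApoE4, as are 93.8% of all listed features. The values there run from 12.6 against 4.99 FPKM for FCGR4 to 152 against 91.1 FPKM for FCER1G.

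Genotypes were compared as log2((FPKM ApoE3 + 1)/(FPKM ApoE4 + 1)), the scale of the study, on which a negative value means higher in ApoE4 and low levels are understated; a gene past 1.3-fold has a value beyond 0.38 in either direction. At 7 dpi 5 of 6 members were higher in ApoE4 and 1 of 6, FCGR4, was past 1.3-fold. Of all features, 4.76% were higher in ApoE4 past 1.3-fold and 3.78% were higher in ApoE3, where no member was. The median ratio of the members was -0.28, beside 0.00 for all features.

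FCGR4 had a ratio of -0.41 at 7 dpi, lower than all but 3.88% of features. SYK followed with -0.34 and FCER1G with -0.28. FCGR2B had a ratio of -0.27 and FCGR3 one of -0.21. These 5 formed a narrow range on the ApoE4 side, with the inhibitory receptor inside the range of the activating ones. FCGR1 stood apart at 0.08, with 67.3% of features below it. In bulk tissue, fewer cells of a type and less RNA per cell cannot be told apart, so these ratios do not separate the number of phagocytes from the receptor RNA in each.

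At 21 dpi all 5 listed members were higher in ApoE4 past 1.3-fold, with a median ratio of -0.86. The whole table was shifted the same way: 58.9% of features were higher in ApoE4 past 1.3-fold and 2.01% were higher in ApoE3, and the median ratio was -0.42. In all, 93.8% of features had a ratio below 0. A count of 5 of 5 is therefore read against a majority of features. After the median of features with a mean of at least 1 FPKM was subtracted, 3 of 5 members were higher in ApoE4 past 1.3-fold, beside 8.06% of all features in that direction and 7.46% in the direction of ApoE3.

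FCGR4 again had the lowest ratio, -1.19, which was -0.76 after the median was subtracted. FCGR1 had -0.99, or -0.57 relative to the median, and 3.89% of features lay below it. SYK had -0.86, or -0.43 relative to the median. These are the 3 members past 1.3-fold on both scales, both of the listed activating receptors among them. FCER1G had -0.73, or -0.31 relative to the median. FCGR2B had -0.56, or -0.14 relative to the median, and 25.6% of features lay below it. The inhibitory receptor thus lay nearest the middle of the table.

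**Figure D3:**
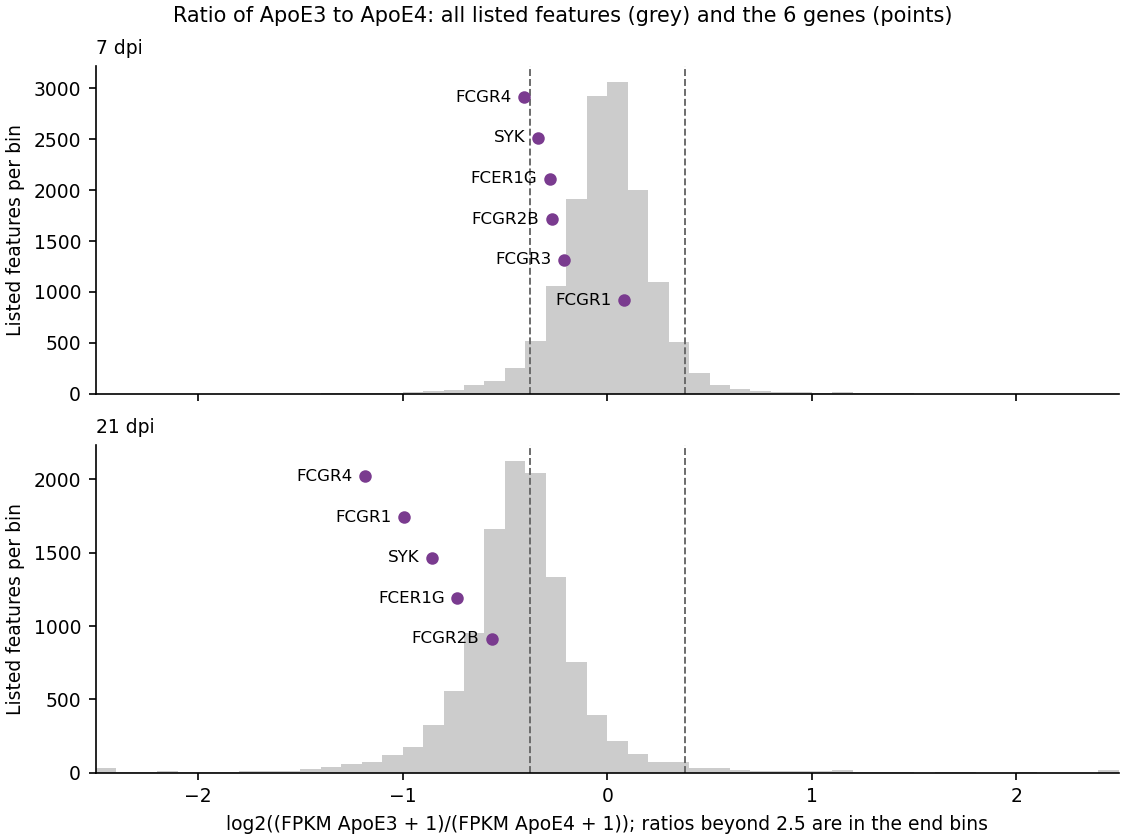
Number of listed features per bin of 0.1 (grey bars) by log2 ratio of ApoE3 to ApoE4 at 7 and 21 dpi, with the 6 genes as points at arbitrary heights and dashed lines at 1.3-fold. The members lie between -0.41 and 0.08 at 7 dpi, where the median of all features is 0.00, and between -1.19 and -0.56 at 21 dpi, where it is -0.42.

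Between the times, the largest difference was that of SYK. In ApoE3 all 5 members listed at both times were lower at 21 dpi past 1.3-fold, as were 23.6% of the 10876 features listed at both times; in ApoE4 all 5 were lower as well, beside 10.9% of features. On the scale log2((FPKM 21 dpi + 1)/(FPKM 7 dpi + 1)) the median of the members was -1.90 in ApoE3, where all features had a median of 0.09, and -1.40 in ApoE4, where all features had 0.53. SYK was 6.36 times lower at 21 dpi in ApoE3 and 4.26 times lower in ApoE4. FCGR4 was 5.22 times lower in ApoE3 and 2.77 times lower in ApoE4. FCGR2B was 3.82 times lower in ApoE3 and 3.09 times lower in ApoE4. FCER1G was 3.18 times lower in ApoE3 and 2.31 times lower in ApoE4. FCGR1 had the smallest step in ApoE4, 1.598 times, after 3.54 times in ApoE3. The step of each of the 5 was smaller in ApoE4, but the median of all features also lay higher at 21 dpi in that genotype. Relative to that median the step of FCGR1 was -1.81 in ApoE3 and -1.18 in ApoE4, and that of FCGR4 was -2.26 in ApoE3 and -1.92 in ApoE4. FCGR2B had -1.99 in ApoE3 and -2.13 in ApoE4, FCER1G -1.75 and -1.73, and SYK -2.65 and -2.56. On that scale the smaller step in ApoE4 was mainly that of FCGR1 and FCGR4. On the same scale, relative to all features, the median step of 9 monocyte and macrophage genes was -1.85 in ApoE3 and -2.57 in ApoE4, that of 6 microglia genes -1.11 and -0.93, and that of 10 spinal cord genes -0.06 and 0.36. Which genotype had the larger median step in the monocyte and macrophage list rests on CHIL3, a gene of low level. CHIL3 was 5.30 FPKM in ApoE3 and 10.6 FPKM in ApoE4 at 7 dpi, and 1.14 and 0.443 FPKM at 21 dpi. Most of the other genes of that list had the smaller step in ApoE4 relative to all features. Of the 66 other pathway genes listed at both times, 48 were lower at 21 dpi past 1.3-fold in ApoE3 and 38 in ApoE4. The part of macrophages and microglia in the lower levels at 21 dpi was not tested.

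Ratios within a group do not depend on how groups were scaled to each other. The activating to inhibitory balance was taken as the FPKM of each activating receptor divided by that of FCGR2B. FCGR3 over FCGR2B was 6.92 in ApoE3 and 6.63 in ApoE4 at 7 dpi. FCGR1 over FCGR2B was 0.291 in ApoE3 and 0.228 in ApoE4 at 7 dpi, and 0.315 in ApoE3 and 0.4399 in ApoE4 at 21 dpi. FCGR4 over FCGR2B was 0.223 in ApoE3 and 0.248 in ApoE4 at 7 dpi, and 0.163 in ApoE3 and 0.276 in ApoE4 at 21 dpi. Both ratios were highest in ApoE4 at 21 dpi among the 4 groups. The order of FCGR1 and FCGR4 also differed: FCGR1 was 1.31 times FCGR4 in ApoE3 and 0.920 times in ApoE4 at 7 dpi, and 1.93 and 1.59 times at 21 dpi.

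Set against genes of the cells that carry them, the members parted. Divided by ITGAM, the integrin chain of myeloid cells, FCER1G was 5.93 in ApoE3 and 6.04 in ApoE4 at 7 dpi, and 6.40 in ApoE3 and 6.10 in ApoE4 at 21 dpi. Divided by SPI1, the gene of PU.1, FCER1G was 3.12, 3.11, 3.42 and 3.08 in the same order. FCER1G thus kept nearly the same level relative to these myeloid genes in all 4 groups. SYK divided by ITGAM was 1.353 in ApoE3 and 1.44 in ApoE4 at 7 dpi, and 0.730 in ApoE3 and 0.788 in ApoE4 at 21 dpi. SYK divided by SPI1 was 0.712, 0.741, 0.391 and 0.397. SYK was therefore lower at 21 dpi relative to both genes, to a like extent in both genotypes. FCGR2B divided by ITGAM was 2.39 in ApoE3 and 2.42 in ApoE4 at 7 dpi, and 2.15 in ApoE3 and 1.83 in ApoE4 at 21 dpi. FCGR1 divided by ITGAM was 0.696, 0.551, 0.675 and 0.805 in the same order, so ApoE4 moved from the lowest of the 4 groups at 7 dpi to the highest at 21 dpi. FCGR4 divided by ITGAM was 0.533, 0.599, 0.351 and 0.506, highest in ApoE4 at 7 dpi and lower at 21 dpi in both genotypes. The choice of divisor matters: divided by AIF1, whose own level did not drop in ApoE4 (285 FPKM at 7 dpi and 319.6 FPKM at 21 dpi), FCER1G was 1.06 and 1.24 at 7 dpi but 0.549 and 0.476 at 21 dpi. Divided by TMEM119, a microglia gene, FCER1G was 3.98 and 4.21 at 7 dpi and 1.95 and 2.04 at 21 dpi. Divided by CSF1R, the receptor that microglia and macrophages need, it was 1.47 and 1.93, then 1.24 and 1.304. These are the 5 divisors computed, and the near-constant level of FCER1G holds for ITGAM and SPI1 but not for AIF1, TMEM119 or CSF1R. The order of the groups for FCGR1 also rests on the divisor, with ApoE4 at 21 dpi the highest for ITGAM and SPI1, 2 of the 5. FCGR1 divided by CSF1R was 0.173 in ApoE3 and 0.176 in ApoE4 at 7 dpi, and 0.131 and 0.172 at 21 dpi. Divided by AIF1 it was 0.124 and 0.113, then 0.0580 and 0.0629, and divided by TMEM119 it was 0.467 and 0.384, then 0.206 and 0.2698. For AIF1 and TMEM119 both groups at 21 dpi thus lay below both at 7 dpi.

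**Figure D4:**
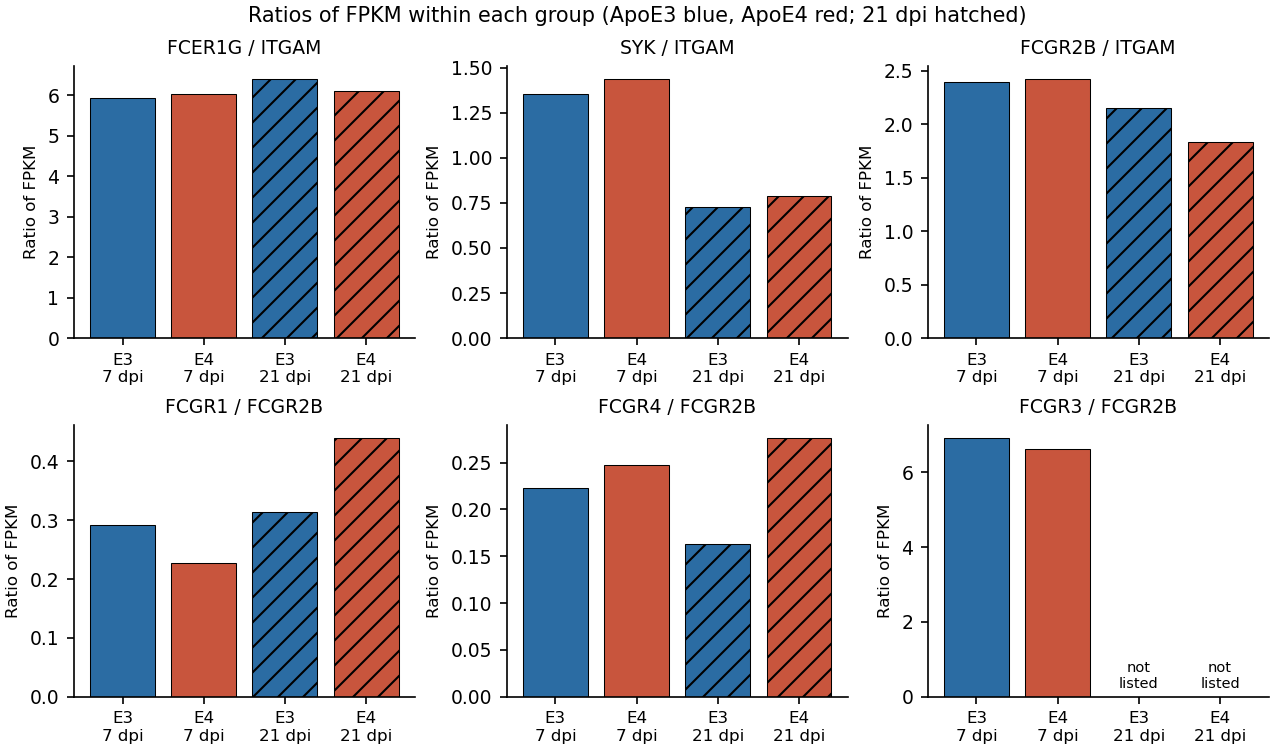
Ratios of FPKM within each of the 4 groups (bars from 0; ApoE3 blue, ApoE4 red, 21 dpi hatched) for 3 genes over ITGAM and the 3 activating receptors over FCGR2B. FCER1G over ITGAM stays between 5.93 and 6.40, SYK over ITGAM is 1.353 and 1.44 at 7 dpi but 0.730 and 0.788 at 21 dpi, and FCGR1 and FCGR4 over FCGR2B are highest in ApoE4 at 21 dpi.

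Markers of the carrying cells were examined beside the members. At 7 dpi 7 of 16 listed monocyte and macrophage genes (of 18) were higher in ApoE4 past 1.3-fold, with a median ratio of -0.34, summed levels of 8993 FPKM in ApoE3 and 11888 FPKM in ApoE4, and LYZ2 the most abundant at 4522 and 6076 FPKM. At 21 dpi 8 of 9 listed were higher in ApoE4 past 1.3-fold, or 5 of 9 relative to the median of all features, with a median of -0.87 (-0.45 relative to all features), sums of 497 and 959 FPKM and LYZ2 at 212 and 426 FPKM. Microglia genes, 8 listed of 12, had a median ratio of -0.02 at 7 dpi, with 1 past 1.3-fold, 4 above 0 and 4 below, so at 7 dpi this list did not share the direction of the members. At 21 dpi its median was -0.66 with 8 past 1.3-fold, or -0.24 with 2 past 1.3-fold relative to all features. Their sums at 21 dpi were 358 and 629 FPKM, led by SIGLECH at 123 and 237 FPKM. SPI1 had ratios of -0.28 and -0.87, close to those of FCER1G at 7 dpi and SYK at 21 dpi. The part of cell number in the ratios of the members was not tested.

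Markers of other immune cells and of platelets were counted as well. Of 12 natural killer cell genes 1 was listed at each time, CD244A at 3.11 and 4.22 FPKM at 7 dpi and NKG7 at 1.23 and 2.62 FPKM at 21 dpi. Of 26 immunoglobulin, B cell and plasma cell genes 3 were listed at 7 dpi and 4 at 21 dpi, none of them an immunoglobulin or JCHAIN gene, so the ligand of the receptors was not measured here. Of 11 mast cell genes 3 were listed at each time, of 16 neutrophil genes 6, of 8 platelet genes 3 and of 14 T cell genes 3. Median ratios at 7 and 21 dpi were 0.03 and -0.76 for neutrophil genes, -0.15 and -0.33 for mast cell genes, -0.14 and -0.65 for T cell genes, -0.72 and -0.49 for platelet genes, -0.31 and -0.17 for B cell and plasma cell genes and -0.07 and -0.46 for dendritic cell genes, of which 7 and 5 of 10 were listed. The housekeeping genes had medians of -0.02 and -0.44. Relative to all features, the medians at 21 dpi were -0.34 for neutrophil, 0.10 for mast cell, -0.23 for T cell, -0.06 for platelet, 0.25 for B cell and plasma cell, -0.04 for dendritic cell and -0.01 for housekeeping genes, so those of the mast cell and B cell lists lay on the ApoE3 side on that scale.

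The other genes of the pathway were taken as 7 lists with 114 genes in all, the 6 members left out. At 7 dpi 97 were listed, with a median ratio of -0.16. Past 1.3-fold, 11 of them (11.3%) were higher in ApoE4 and 1 (1.03%) in ApoE3, beside 4.76% and 3.78% of all features. At 21 dpi 71 were listed, with a median of -0.52. Past 1.3-fold, 56 (78.9%) were higher in ApoE4 and 1 (1.41%) in ApoE3, beside 58.9% and 2.01% of all features. Relative to the median of all features these were 12 (16.9%) and 3 (4.23%) genes, beside 8.06% and 7.46% of all features. On that scale the median of the pathway genes was -0.09. The pathway as a whole thus lay nearer to the middle of the table at 21 dpi than the members, whose median relative to all features was -0.43.

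Receptors and adaptors were grouped as a list upstream of SYK, which also held HCST, an adaptor without an ITAM. Of these genes, 10 of 11 were listed at 7 dpi, all on the ApoE4 side, with a median of -0.25. The lectins CLEC4D, CLEC4E and CLEC4N were past 1.3-fold, and CLEC4N, which pairs with FCER1G, had -0.66 with 9.76 FPKM in ApoE3 and 16.05 FPKM in ApoE4. TREM2 was the most abundant at 460 and 561 FPKM, and TYROBP, the ITAM chain it pairs with, was 274 and 318 FPKM, close to the level of FCER1G; neither was listed at 21 dpi. All 4 listed at 21 dpi were higher in ApoE4 past 1.3-fold, or 3 of 4 relative to all features, CLEC7A at 47.2 and 89.3 FPKM and HCST at 4.18 and 11.2 FPKM among them. Of 12 other Fc receptors and Fc receptor-like genes, 4 were listed at each time, with medians of -0.06 and -0.86. FCRLS, a microglial receptor of this family, was the most abundant, at 230.0 and 301 FPKM at 7 dpi and 54.0 and 109 FPKM at 21 dpi, with ratios of -0.39 and -0.998. FCRL1 had the lowest ratio of this list at 21 dpi, -1.45, with 6.75 and 20.1 FPKM.

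Of the SRC family kinases, which phosphorylate the ITAM, 7 of 8 were listed at 7 dpi and 6 at 21 dpi, with medians of -0.11 and -0.50. LYN was 49.3 and 57.6 FPKM at 7 dpi and 14.7 and 21.4 FPKM at 21 dpi. FGR had a ratio of -0.38 at 7 dpi, within 1.3-fold, and -1.15 at 21 dpi. LCK, the T cell member of the family, was the only pathway gene higher in ApoE3 past 1.3-fold at either time before the median was subtracted, with 11.5 and 4.79 FPKM at 7 dpi and 11.0 and 8.06 FPKM at 21 dpi.

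Below SYK, 26 of 29 signalling genes were listed at 7 dpi, with a median of -0.10, and 1 was past 1.3-fold: LAT2, an adaptor of myeloid cells, at 420.3 FPKM in ApoE3 and 585 FPKM in ApoE4. At 21 dpi 20 were listed with a median of -0.46, or -0.03 relative to all features. VAV1, the exchange factor that SYK activates, was 32.1 and 40.7 FPKM at 7 dpi and 13.7 and 27.5 FPKM at 21 dpi. VAV1 and PIK3R5 were the 2 signalling genes higher in ApoE4 past 1.3-fold relative to the median at 21 dpi. On that scale 1 signalling gene, NFATC1 at 0.39, was past 1.3-fold on the ApoE3 side. Of the NADPH oxidase subunits that make the oxidative burst, all 6 were listed at both times, with medians of -0.29 and -0.71. All 6 ratios were below 0 at both times, but relative to all features RAC2 was above 0 at 21 dpi (0.02), and 2 of 6 were past 1.3-fold. CYBB, the catalytic subunit, was 54.4 and 64.1 FPKM at 7 dpi and 5.06 and 10.2 FPKM at 21 dpi. Of 29 genes of the phagocytic actin machinery, 28 were listed at 7 dpi and 21 at 21 dpi, with medians of -0.14 and -0.52. DOCK2, an exchange factor for RAC proteins, had the lowest ratio of these at 7 dpi, -0.63, with 42.5 and 66.4 FPKM; at 21 dpi 0 of these genes were past 1.3-fold relative to the median.

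On the inhibitory side, 17 of 20 genes were listed at 7 dpi and 11 at 21 dpi, with medians of -0.23 and -0.54. INPP5D, the phosphatase recruited by FCGR2B, was 301 and 311 FPKM at 7 dpi and 73.4 and 128 FPKM at 21 dpi, with ratios of -0.05 and -0.80. PTPN6, the phosphatase of other ITIM receptors, was 99.5 and 124 FPKM at 7 dpi, a ratio of -0.31. CD300A, an ITIM receptor of myeloid cells, had -0.42 at 7 dpi and -1.88 at 21 dpi, with 6.37 FPKM in ApoE3 and 26.1 FPKM in ApoE4 at 21 dpi. LILRB4A, another ITIM receptor, was 56.6 and 110.1 FPKM at 21 dpi, a ratio of -0.95. Of the inhibitory genes, 15 of 17 had a ratio below 0 at 7 dpi, CD33 and PAG1 lying above 0 at 0.14 and 0.08, and 10 of 11 at 21 dpi, DOK2 lying above 0 at 0.21. Relative to all features 2 of 11 were higher in ApoE4 past 1.3-fold at 21 dpi and 1 was higher in ApoE3.

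Interferon-responsive genes were examined because FCGR1 and FCGR4 are known to be induced by interferon. At 7 dpi 16 of 21 listed genes (of 23) were higher in ApoE3 past 1.3-fold, with a median ratio of 0.68. IFIT3 was the most abundant, at 373 and 160.4 FPKM, and CXCL10 was 34.2 and 13.04 FPKM. At 21 dpi all 17 listed genes were higher in ApoE4, 16 of them past 1.3-fold, with a median of -0.66. Relative to all features these were 5 of 17 and a median of -0.24. The 5 listed genes not past 1.3-fold at 7 dpi, IRF8, IFNGR2, SOCS1, IFNGR1 and IRF1, all lay on the ApoE4 side, from -0.21 for IRF8 to -0.07 for IRF1. IFNGR1 and IFNGR2 encode chains of the interferon gamma receptor and stood in the list beside the responsive genes. FCGR1 had 0.08 at 7 dpi, within 1.3-fold, and -0.99 at 21 dpi; since 49.5% of all features were higher in ApoE4 at 7 dpi and 93.8% at 21 dpi, its side at each time is one that many features share. FCGR4 had -0.41 at 7 dpi, past 1.3-fold and on the side opposite to the median of this list, and -1.19 at 21 dpi. The part of interferon in the ratios of FCGR1 and FCGR4 was not tested.

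**Figure D5:**
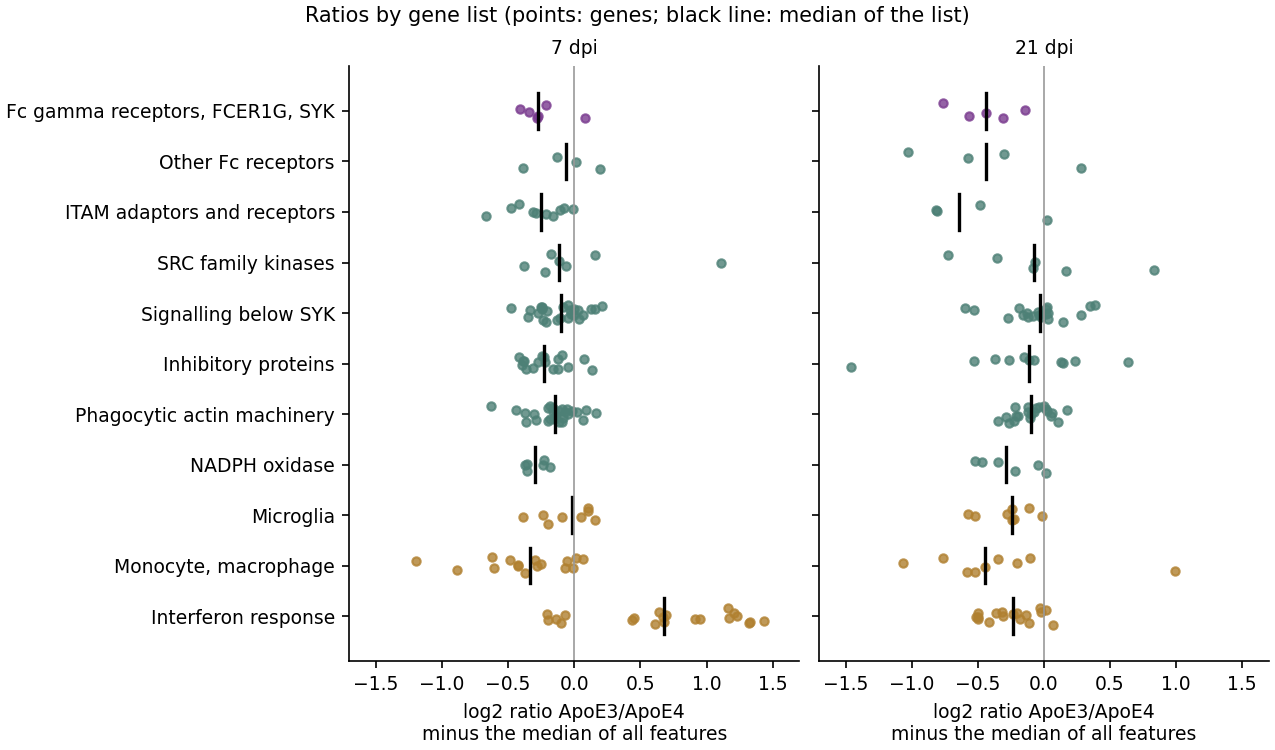
Horizontal axis: log2 of ApoE3 over ApoE4 after the median over all features was subtracted, at 7 and 21 dpi, for the members, the 7 pathway lists and 3 marker lists; points are genes and black lines medians of the plotted genes. The members sit below 0 except FCGR1 at 7 dpi, the median of the interferon genes is 0.68 at 7 dpi but -0.24 at 21 dpi, and the members have a median of -0.43 at 21 dpi.

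The average profile of the 5 members with 4 values, each as log2(FPKM + 1) minus its own mean, was compared with the profiles of 8506 genes with a mean of at least 10 FPKM. The 5 nearest by Euclidean distance were RIN3 (0.101), BCL2A1B (0.107), HPGDS (0.121), GPR17 (0.139) and INPP5D (0.154), beside a median distance of 2.08. RIN3 was 38.3 FPKM in ApoE3 and 47.98 FPKM in ApoE4 at 7 dpi, and 9.60 and 16.8 FPKM at 21 dpi. Of the members, FCGR2B was nearest to their own average at 0.223, followed by FCGR4 at 0.271 and FCER1G at 0.277, with FCGR1 at 0.562 and SYK at 0.611 farthest. FCGR1 and SYK were thus the least typical members, FCGR1 through its small step over time in ApoE4 and SYK through its large one in both genotypes.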

How the data were processed

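RNA of the lesion segments was sequenced by the authors as single-end reads of 100 nucleotides. The authors' processing notes name STAR 2.5.4b, Bowtie2 2.1.10, SAMtools 0.1.7 and Cuffdiff 1.3.0; the genome build is not given in the sources used here. Libraries were down-sampled to the smallest before alignment. The deposited values are FPKM plus 1, with 1 combined value per gene and group, and 1 was subtracted here. The table also holds the authors' p-values, q-values, fold changes and log2 fold changes of the comparison, which were not used. The table gives no reads per gene, so no counting error was computed, and with 1 value per group no test was run.

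Log2 ratios used a pseudocount of 1 and calls a fold of 1.3. The value columns were read in the order in which each row names the comparison; the numbering of the samples gives the opposite genotypes. Symbols on 2 rows at a time point (2 at each) were left out there. The members and gene lists were chosen with earlier results of these data known. Genes named are the members and, from each list, those past 1.3-fold at either time and the 3 of highest mean FPKM, up to 30 per comparison, plus the 5 genes nearest in profile. APOE, PTPN6, IFNGR1 and IFNGR2 are outside this rule, and which of the genes it allows were printed was decided with their values in view. Some genes of the lists are not reported here.

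Promoters were from RefSeq GRCm38.p6 and transcripts from GENCODE vM21. Alternatives were pseudocounts of 0.1 and 0.01, a fold of 1.5, a minimum mean of 1 FPKM, subtraction of the median ratio and, added after the values were seen, genotypes read by sample number. Computations used pandas 2.3.3 and numpy 2.4.6 under Python 3.11.15, and plots matplotlib 3.10.9, with the ratio procedure tested on simulated data.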

Additional observations from a re-analysis of the deposited data

Results flagged for a closer look

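FCGR1 had opposite directions at the 2 times, with a log2 ratio of ApoE3 to ApoE4 of 0.080 at 7 dpi and -0.99 at 21 dpi. The median of the interferon-responsive genes did the same, at 0.68 at 7 dpi and -0.66 at 21 dpi. Of the 21 listed at 7 dpi, 5 lay below 0 there, the receptor genes IFNGR1 and IFNGR2 among them. FCGR4, also known to be induced by interferon, was below 0 at both times, at -0.41 and -1.19. All features had a median of -0.42 at 21 dpi, and relative to it FCGR1 was -0.57 and the interferon-responsive genes -0.24. Each rests on 1 combined value per group, the ratio of FCGR1 at 7 dpi is within 1.3-fold, and no difference between times was tested.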

How the results depend on the processing

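Over 19 results and 90 alternative values, 64 kept their direction and side of 1.3-fold or, for counts, stayed within 1.5 times; pseudocounts of 0.1 and 0.01 and a minimum mean of 1 FPKM moved none of those they were run on. With a fold of 1.5, 0 members and 2 pathway genes higher in ApoE4 were past it at 7 dpi, and 0 pathway genes higher in ApoE3 and 27 higher in ApoE4 at 21 dpi, since the rule is stricter. With the median ratio subtracted at 21 dpi, 3 members, 3 pathway genes higher in ApoE3 and 12 higher in ApoE4 were past 1.3-fold, and FCGR2B (-0.14) and FCER1G (-0.31) were within it, since all features were shifted by -0.42. With genotypes read by sample number, an alternative added after the values were seen, each ratio changes sign by construction. The median of the members becomes 0.28 at 7 dpi and 0.86 at 21 dpi, FCGR4 0.41 at 7 dpi, and at 21 dpi FCGR1 0.99, FCGR4 1.19, FCGR2B 0.56, FCER1G 0.73 and SYK 0.86. Pathway genes higher in ApoE3 and ApoE4 are then 11 and 1 at 7 dpi and 56 and 1 at 21 dpi. Libraries were down-sampled to the smallest, but the table gives no reads per gene, and no counting error was computed; low values such as FCGR4 at 21 dpi are the least precise.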
